A study of Mus musculus with 7 samples.

Results

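The genes that turn paraxial mesoderm into vertebrae and cartilage were followed in whole mouse embryos through 10 genes, which were picked by their symbols (Sox9, Sox5, Sox6, Pax1, Pax9, Nkx3-2, Runx2, Acan, Matn1 and Cnmd) from a table of 25461 genes. All 10 symbols were in the table, each on 1 gene. The embryos were 3 global SLMAP3 KO and 4 WT embryos of the B6C3F1 strain at e11.5, and the whole body except the tail, which had gone to genotyping, was used for RNA of a single embryo. The KO allele lacks the floxed exon 3 after recombination by CMV-cre and was bred on without cre, so KO and WT embryos came from crosses of heterozygous animals that carried no recombinase. The deletion removes the SLMAP3 isoform in every tissue but leaves SLMAP1 and SLMAP2, and SLMAP3 itself is a membrane protein of organelles that belongs to the STRIPAK complex. Whether the sequenced KO embryos had an open neural tube is not given in the labels.

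The sclerotome is the ventral part of each somite, whose cells gather around the notochord and neural tube and build the vertebral column and the ribs. Sonic hedgehog from the notochord turns on the transcription factors Pax1, Pax9 and Nkx3-2 there, and Sox9 with its partners Sox5 and Sox6 then switches on the genes of cartilage matrix, among them type II collagen and aggrecan. Several of these genes also act elsewhere in the embryo, Sox9 in neural progenitors, neural crest and gonad, Sox5 and Sox6 in neurons and muscle, and Pax1 and Pax9 in the pharyngeal pouches, and a whole embryo adds all these sites together. In such bulk samples, fewer cells of a type and less RNA per cell cannot be told apart.

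Levels are the authors' FPKM, a fragment count divided by transcript length and library depth, so that levels of different genes can be compared per length. The steps between low values put the depth of the embryos at 0.818 to 1.22 of their average. Slmap, a count over all isoforms, averaged 65.1% of WT in KO embryos, without overlap of the genotypes. The summed FPKM of 7 liver genes was 4.65 to 10.04 in 3 embryos (KO KOAC10-5, WT KOAC10-7 and WT KOAC10-2) and 401 to 728 in the others. In limma's test on log2(FPKM + 1), run on the 16095 genes that averaged 1 FPKM or more, 6 genes passed the adjusted threshold of 0.05. Slmap itself was not among these 6 (log2 fold change -0.59, adjusted p = 0.278 from limma). Without adjustment, 997 genes (6.19%) were lower in KO embryos and 849 (5.27%) higher at p under 0.05. All KO embryos lay below all WT embryos in 963 of the genes tested (5.98%) and above them in 903 (5.61%).

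Of the 10 genes, 9 passed the filter on low values, and 0 of these 9 had an adjusted p under 0.05 in limma, where the share over all genes tested was 0.0373%. At an unadjusted p under 0.05, 3 of the 9 were lower in KO embryos (Pax1, Acan and Cnmd) and 0 were higher. The shares of all genes tested were 6.19% lower and 5.27% higher. The count of lower genes was 1 without KOAC8-6 or without KOAC10-8, 2 without KOAC8-1, KOAC10-7 or KOAC9-1, and 3 without either remaining embryo. With 1 embryo left out, 4.28% to 8.53% of all genes tested were lower, most without KOAC10-5. The 10 genes, like the lists below, were chosen with earlier results of these data known, so such counts are descriptions. The median log2 fold change of the 9 was -0.20, where that of all genes tested was 0.01. All KO embryos were below all WT embryos for 1 of the 9, Cnmd, and above them for 0. For all genes tested, these shares were 5.98% and 5.61%.

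**Figure D1:**
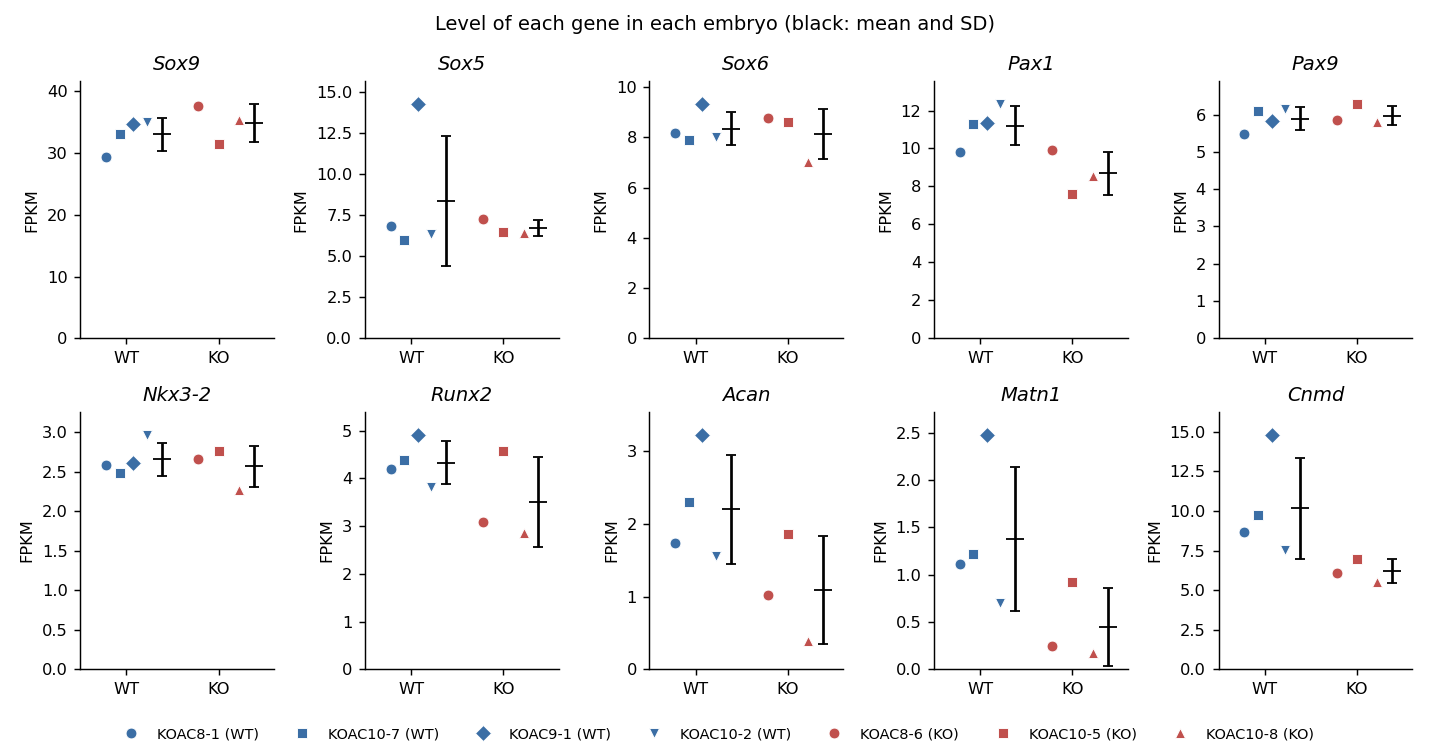
FPKM of the 10 genes in each of the 7 embryos (vertical axes start at 0), WT embryos in blue and KO embryos in red with 1 symbol per embryo, and the mean with its SD in black. Sox9 and Pax9 overlap between the genotypes, Cnmd does not, and the WT embryo KOAC9-1 is the highest for Sox5, Sox6, Runx2, Acan, Matn1 and Cnmd.

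By mean FPKM over the 7 embryos, Sox9 was the highest at 33.8 and lay above 75.3% of the genes tested. Pax1 followed at 10.1, and Cnmd, Sox6 and Sox5 came next at 8.46, 8.26 and 7.66, with ranges over the embryos that overlapped. Pax9 was at 5.93, Runx2 at 3.98 and Nkx3-2 at 2.62. Acan and Matn1, both products of differentiated chondrocytes, were the lowest at 1.73 and 0.978 FPKM, and Acan lay above 9.91% of the genes tested. Of the cartilage genes, Col2a1, which encodes type II collagen, was already abundant with a mean of 152.0 FPKM.

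The sclerotome factor Pax1, a paired box gene needed for the ventral parts of the vertebrae, lies on chromosome 2 of GRCm38 (chr2:147361925-147393295, plus strand). The KO embryos KOAC8-6, KOAC10-5 and KOAC10-8 had 9.90, 7.60 and 8.56 FPKM. The WT embryos KOAC8-1, KOAC10-7, KOAC9-1 and KOAC10-2 had 9.81, 11.3, 11.3 and 12.3 FPKM, and all genes are given in this order of embryos. The genotypes overlapped in the pair from KOAC8, where the KO embryo was level with the WT embryo, while the other KO embryos were below all WT embryos. KO embryos averaged 8.69 ± 1.15 FPKM (SD, n = 3), or 77.6% of the WT average of 11.2 ± 1.03 FPKM (SD, n = 4) (exact permutation test, two-sided, p = 0.0857). The log2 fold change was -0.33 (95% confidence interval -0.58 to -0.09, adjusted p = 0.348 from limma). Within the embryos named KOAC10 the KO mean was 68.4% of the WT mean with 2 embryos per genotype, and within KOAC8, with 1 per genotype, it was 101.0%.

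Pax9, the closest relative of Pax1 and its partner in sclerotome, lies on chromosome 12 (chr12:56691767-56712822, plus strand) and was at 5.86, 6.27 and 5.79 FPKM (KO) against 5.49, 6.09, 5.83 and 6.15 FPKM (WT). The genotypes overlapped throughout, and the KO mean was 101.0% of the WT mean (log2 fold change 0.02, 95% confidence interval -0.14 to 0.17, adjusted p = 0.935 from limma). The ratio of Pax1 to Pax9 FPKM, chosen after the values had been seen and so given without a test, was 1.69, 1.21 and 1.48 in KO and 1.79, 1.86, 1.94 and 2.00 in WT embryos. Every KO embryo thus had less Pax1 for its Pax9 than every WT embryo.

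Nkx3-2, a homeobox repressor that acts below Pax1 and Pax9 in sclerotome, lies on chromosome 5 (chr5:41761483-41764501, minus strand). It was at 2.66, 2.77 and 2.27 FPKM (KO) against 2.59, 2.48, 2.61 and 2.96 FPKM (WT), which overlapped, with the lowest value in the KO embryo KOAC10-8. Its log2 fold change was -0.04 (95% confidence interval -0.24 to 0.16, adjusted p = 0.896 from limma).

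Sox9, the HMG box factor on which cartilage formation depends, lies on chromosome 11 (chr11:112782224-112787760, plus strand) and was at 37.6, 31.5 and 35.3 FPKM (KO) against 29.3, 33.0, 34.7 and 35.0 FPKM (WT). The highest and the next highest embryo were both KO, and the KO embryo KOAC10-5 lay in the WT range. KO embryos averaged 34.8 ± 3.06 FPKM (SD, n = 3) and WT embryos 33.0 ± 2.61 FPKM (SD, n = 4), a log2 fold change of 0.07 (95% confidence interval -0.13 to 0.27, adjusted p = 0.757 from limma). Of 7 markers of neural progenitors, cells that also use Sox9, 6 had an unadjusted p under 0.05 and were higher in KO embryos, with a summed FPKM of 661 to 740.3 in KO and 598 to 683 in WT embryos. Over all genes tested, 5.27% were higher at that threshold. The part of neural progenitors in the level of Sox9 was not tested.

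The partners of Sox9 bind the same enhancers without an activation domain of their own. Sox6 (chr7:115470872-116038796, minus strand) was at 8.79, 8.62 and 7.01 FPKM (KO) against 8.16, 7.88, 9.31 and 8.03 FPKM (WT), which overlapped (log2 fold change -0.04, adjusted p = 0.912 from limma). Sox5 (chr6:143828425-144781977, minus strand) was at 7.29, 6.49 and 6.40 FPKM (KO) against 6.83, 5.99, 14.3 and 6.37 FPKM (WT). The WT embryo KOAC9-1 was at 2.23 times the mean of the other WT embryos, and the other embryos of both genotypes overlapped. With KOAC9-1, the log2 fold change of Sox5 was -0.20 (95% confidence interval -0.83 to 0.43, adjusted p = 0.794 from limma), and without it 0.06. The sign of the small Sox6 value also turned, to 0.01 without KOAC9-1 and 0.06 without KOAC10-8.

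Runx2, which drives chondrocyte maturation and bone formation, lies on chromosome 17 (chr17:44495987-44814797, minus strand). It was at 3.09, 4.58 and 2.85 FPKM (KO) against 4.20, 4.39, 4.91 and 3.83 FPKM (WT). The KO embryos KOAC8-6 and KOAC10-8 were below all WT embryos, and KOAC10-5 was above all WT embryos but KOAC9-1. The KO mean was 81.0% of the WT mean (exact permutation test, two-sided, p = 0.2), with a log2 fold change of -0.26 (95% confidence interval -0.59 to 0.08, adjusted p = 0.526 from limma). Without KOAC10-5 it was -0.42, and without KOAC10-8 it was -0.15.

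The remaining genes encode products of cartilage cells, and their KO means were 32.1% to 60.8% of the WT means, where those of the transcription factors were 77.6% to 105.0%. They are Acan, which encodes aggrecan, the large proteoglycan that holds water in cartilage, Matn1, which encodes the matrix protein matrilin 1, and Cnmd, which encodes chondromodulin, a membrane glycoprotein that keeps blood vessels out of cartilage. Without KOAC9-1, the KO means of these 3 genes were 43.7% to 71.6% of the WT means, and those of the transcription factors 77.9% to 107.0%. Within KOAC10, with 2 embryos per genotype, the KO mean was 72.3% of the WT mean for Cnmd and 68.4% for Pax1. Acan, Matn1 and Cnmd were all lowest in the KO embryo KOAC10-8 and highest in the WT embryo KOAC9-1. Runx2 and Sox6 also had their extremes in these embryos. Over the 7 embryos the Pearson r of Runx2 was 0.949 with Acan, 0.926 with Matn1 and 0.811 with Cnmd. In the same order r was 0.707, 0.592 and 0.575 for Sox6 and 0.545, 0.669 and 0.75 for Sox5. Among Acan, Matn1 and Cnmd, r was 0.901 to 0.967. These values describe points that share genotype and depth. For Acan, Matn1, Cnmd and Runx2, which had the most alike profiles over the embryos, the 250 bases before the RefSeq starts in GRCm38.p6 are shown, read 5′ to 3′ on the strand of the gene. They lie at chr7:79052976-79053225 on the plus strand for Acan, at chr4:130944135-130944384 on the plus strand for Matn1, at chr14:79662184-79662433 on the minus strand for Cnmd and at chr17:44814628-44814877 on the minus strand for Runx2. Capitals mark matches to the GC box (GGGCGG), the RUNX motif (TGTGGT) and the core SOX letters (ACAAT or ACAAAG), on either strand.
Acan: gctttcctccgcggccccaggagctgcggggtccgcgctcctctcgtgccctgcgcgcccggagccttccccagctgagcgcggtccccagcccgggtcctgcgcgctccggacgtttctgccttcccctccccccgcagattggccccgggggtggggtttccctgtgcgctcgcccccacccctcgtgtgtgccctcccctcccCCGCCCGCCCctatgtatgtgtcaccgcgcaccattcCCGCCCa
Matn1: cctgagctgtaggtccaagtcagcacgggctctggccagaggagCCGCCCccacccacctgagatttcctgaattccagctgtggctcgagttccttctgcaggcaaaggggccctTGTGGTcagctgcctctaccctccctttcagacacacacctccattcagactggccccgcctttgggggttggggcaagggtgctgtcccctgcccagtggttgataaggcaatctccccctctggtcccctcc
Cnmd: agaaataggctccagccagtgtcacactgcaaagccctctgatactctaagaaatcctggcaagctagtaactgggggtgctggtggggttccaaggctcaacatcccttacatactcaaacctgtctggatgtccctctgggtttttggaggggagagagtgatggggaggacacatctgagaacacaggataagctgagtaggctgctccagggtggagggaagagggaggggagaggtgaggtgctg
Runx2: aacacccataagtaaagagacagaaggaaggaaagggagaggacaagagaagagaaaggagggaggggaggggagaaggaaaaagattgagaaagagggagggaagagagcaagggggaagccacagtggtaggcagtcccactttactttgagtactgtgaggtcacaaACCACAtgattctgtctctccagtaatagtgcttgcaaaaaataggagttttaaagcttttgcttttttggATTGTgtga

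None of the motifs searched was in all 4 windows. In the Acan window, 74.4% of the bases were G or C, against a median of 52.4% over 32851 RefSeq promoters of this length. It held 3 GC boxes, of which 2 overlap and the nearest begins 7 bases before the RefSeq start. This start lies upstream of the GENCODE gene, which begins at chr7:79053483, so the distance holds for the RefSeq start only. The Matn1 window (62.0% G or C) held 1 GC box and, 134 bases before the start, 1 RUNX motif, the letters bound by Runx2 and its relatives. The Cnmd window (54.0% G or C) held none of the motifs searched. The Runx2 window (44.8% G or C) held 1 RUNX motif, 80 bases before the start, and 1 match to the SOX letters, 9 bases before it. The GENCODE gene (chr17:44495987-44814797) reaches past this RefSeq start, so both matches lie inside the gene as GENCODE places it. The TATA box (TATAAA) was in none of the 4 windows. Over all 32851 promoters, the SOX letters were found in 38.8%, the RUNX motif in 14.0%, the TATA box in 12.4% and the GC box in 32.7%. Of the 10 genes, 9 had a RefSeq window and Sox9 was not matched.

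Acan (chr7:79053483-79115099 in GENCODE release M21) was at 1.02, 1.87 and 0.393 FPKM (KO) against 1.73, 2.30, 3.22 and 1.56 FPKM (WT). The KO embryos KOAC8-6 and KOAC10-8 were below all WT embryos, and KOAC10-5 lay within the WT range. KO embryos averaged 1.09 ± 0.74 FPKM (SD, n = 3), or 49.6% of the WT average of 2.20 ± 0.748 FPKM (SD, n = 4) (exact permutation test, two-sided, p = 0.143). On the log2(FPKM + 1) scale, which understates differences of genes this low, the fold change was -0.65 (95% confidence interval -1.29 to -0.01, adjusted p = 0.432 from limma). Leaving KOAC10-8 out gave -0.39, and the KO mean within KOAC8 and within KOAC10 was 58.7% and 58.6% of the WT mean.

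Matn1 (chr4:130944385-130955475, plus strand) averaged under 1 FPKM over the 7 embryos, so that it fell outside the genes tested. It was at 0.241, 0.919 and 0.169 FPKM (KO) against 1.12, 1.22, 2.48 and 0.704 FPKM (WT). The KO embryos KOAC8-6 and KOAC10-8 were far below the WT range, while KOAC10-5 was above the lowest WT embryo, KOAC10-2. KO embryos averaged 0.443 ± 0.414 FPKM (SD, n = 3), or 32.1% of the WT average of 1.38 ± 0.765 FPKM (SD, n = 4), the lowest share among the 10 genes (exact permutation test, two-sided, p = 0.114). In the fit without a filter on low values, the log2 fold change was -0.71 (95% confidence interval -1.34 to -0.07, adjusted p = 0.483 from limma). If FPKM is taken as proportional to the authors' normalized counts, about 20 fragments stood behind the lowest embryo and 296 behind the highest.

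Cnmd (chr14:79637690-79662170, minus strand) was at 6.06, 6.99 and 5.49 FPKM (KO) against 8.64, 9.72, 14.8 and 7.55 FPKM (WT). The genotypes did not overlap, and KOAC10-5, the highest KO embryo, came nearest to KOAC10-2, the lowest WT embryo. KO embryos averaged 6.18 ± 0.756 FPKM (SD, n = 3), or 60.8% of the WT average of 10.17 ± 3.20 FPKM (SD, n = 4) (exact permutation test, two-sided, p = 0.0571, where no p under 0.0286 can be had from 3 and 4 embryos). The log2 fold change was -0.60 (95% confidence interval -1.08 to -0.12, adjusted p = 0.365 from limma). Against the 5.98% of all genes tested in which the KO embryos lay below the WT embryos, 1 of 9 is 11.1%. Within the embryos named KOAC8, with 1 per genotype, the KO level was 70.1% of WT. Within KOAC10, with 2 per genotype, it was 72.3%, without overlap. In that comparison the KO embryos lay below the WT embryos in 17.4% of all genes tested.

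**Figure D2:**
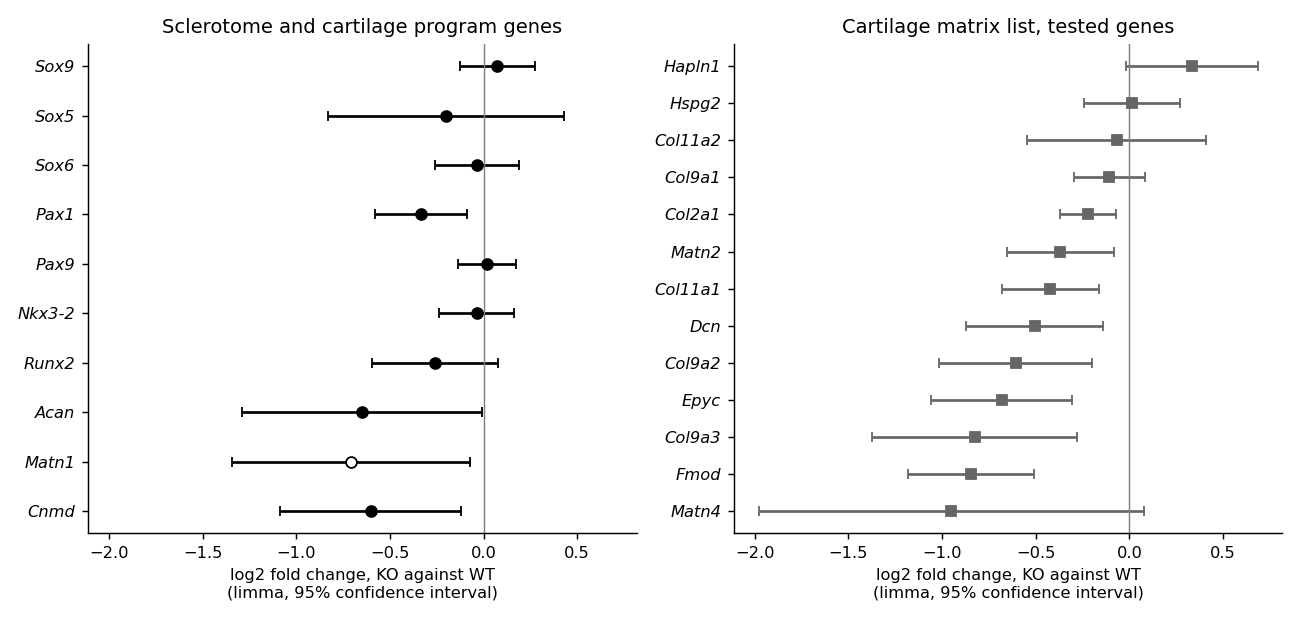
Log2 fold change of KO against WT with its 95% confidence interval from limma (horizontal axes), for the 10 genes on the left and for the 13 tested genes of the cartilage matrix list on the right; the open circle is Matn1 from the fit without a filter. Sox9, Sox6, Pax9 and Nkx3-2 sit near 0, Acan, Matn1 and Cnmd between -0.60 and -0.71, and 11 of the 13 matrix genes lie below 0.

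The other genes of cartilage matrix were read from a list of 20, of which 19 were in the table and 13 were tested. Of these 13, 0 had an adjusted p under 0.05 in limma, 8 had an unadjusted p under 0.05 and were lower in KO embryos, and 0 were higher at that threshold, where the backgrounds are 6.19% and 5.27%. With any 1 embryo left out, 8 or 9 of the 13 were lower at that threshold, and 1 was higher without KOAC10-5. The share of all genes tested that were lower was then 4.28% to 8.53%. In 8 of the 13, the KO embryos all lay below the WT embryos, against 5.98% of all genes tested. The list was chosen with earlier results of these data known, so its counts are descriptions and no test. Their median log2 fold change was -0.42, against 0.01 over all genes tested. The 3 with the smallest unadjusted p were Fmod, which encodes the collagen-binding proteoglycan fibromodulin, Epyc, which encodes the small proteoglycan epiphycan, and Col11a1, which encodes a chain of type XI collagen. Fmod was at 3.94, 3.92 and 2.96 FPKM (KO) against 6.69, 7.15, 9.22 and 6.15 FPKM (WT) (log2 fold change -0.84, adjusted p = 0.274 from limma). Col11a1 was at 24.1, 24.5 and 18.0 FPKM (KO) against 28.5, 29.6, 32.1 and 29.2 FPKM (WT) (log2 fold change -0.42, adjusted p = 0.295), and Epyc averaged 0.762 FPKM (KO) against 1.82 FPKM (WT) (log2 fold change -0.68, adjusted p = 0.286). These genes separated the genotypes without overlap, as Cnmd did.

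Of the collagens of cartilage, Col2a1, a direct target of Sox9, was at 133, 147 and 136 FPKM (KO) against 152, 164, 174 and 159 FPKM (WT). The KO embryos were below the WT embryos without overlap, by a log2 fold change of -0.22 (95% confidence interval -0.37 to -0.07, adjusted p = 0.318 from limma). Relative to Sox9 in the same embryo, Col2a1 FPKM was 3.54, 4.67 and 3.87 times as high in KO and 5.17, 4.97, 5.00 and 4.56 times as high in WT embryos, a ratio chosen after the values had been seen. Of the type IX collagen genes, Col9a3 had a log2 fold change of -0.82 and Col9a2 of -0.61, while Col9a1 overlapped between the genotypes at -0.11. Col11a2, which encodes another chain of type XI collagen, overlapped as well, at -0.07 (95% confidence interval -0.55 to 0.41, adjusted p = 0.923 from limma). Hapln1, the link protein that fastens aggrecan to hyaluronan, went the other way, at 5.18, 3.91 and 6.86 FPKM (KO) against 4.10, 3.89, 3.94 and 3.77 FPKM (WT), with an overlap in KOAC10-5 (log2 fold change 0.33, adjusted p = 0.457 from limma). Genes of mature cartilage and of joints (Comp, Matn3, Chad, Ucma, Clec3a and Prg4) averaged under 1 FPKM.

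Among relatives of the 10 genes, the nearest to Cnmd is Tnmd, a gene of tendons that encodes tenomodulin. Tnmd was at 0.369, 0.749 and 0.343 FPKM (KO) against 1.48, 2.62, 3.20 and 1.45 FPKM (WT), without overlap, and was lowest in KOAC10-8 and highest in KOAC9-1 as Cnmd was (log2 fold change -1.07, 95% confidence interval -1.60 to -0.55, adjusted p = 0.274 from limma). Of the matrilins, Matn2 was lower in KO embryos without overlap (log2 fold change -0.37, adjusted p = 0.359), and Matn4 had values of 4.82, 12.5 and 2.79 FPKM (KO) against 12.1, 11.7, 17.8 and 7.87 FPKM (WT), again with KOAC10-5 inside the WT range. Of the other large proteoglycans, Vcan had a log2 fold change of 0.08 (95% confidence interval -0.15 to 0.31) and Ncan of -0.04 (-0.28 to 0.21). Sox13, which belongs to the same group as Sox5 and Sox6, was at 21.3, 21.6 and 25.2 FPKM (KO) against 16.7, 14.6, 18.4 and 19.9 FPKM (WT), every KO embryo above every WT embryo (log2 fold change 0.37, adjusted p = 0.345 from limma). Pax3, which marks the dorsal somite, dorsal neural tube and neural crest, was likewise higher in KO embryos without overlap (log2 fold change 0.33, adjusted p = 0.286), and Pax7, Pax8 and Pax2 overlapped, at 0.05, -0.01 and 0.07. Of 14 tested relatives, 0 had an adjusted p under 0.05, 2 were lower and 2 higher at an unadjusted p under 0.05, and their median log2 fold change was -0.07. Over all genes tested, 6.19% were lower and 5.27% higher at that threshold. The count of lower relatives was 3 without KOAC10-5 and 4 without KOAC10-2, where 8.53% and 5.41% of all genes tested were lower.

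The inducing signals and the early somite genes had medians above that of all genes tested. Of 12 tested Hedgehog signals and targets, 0 had an adjusted p under 0.05 in limma, 2 were higher, Shh among them, and 1 lower (Cdon) at an unadjusted p under 0.05, and the median log2 fold change was 0.15. The count of higher genes was 0 without KOAC8-6, KOAC10-8, KOAC8-1 or KOAC9-1, 1 without KOAC10-7, 4 without KOAC10-2 and 5 without KOAC10-5. Over all genes tested, 5.27% were higher and 6.19% lower at that threshold. With 1 embryo left out, 3.3% to 7.81% of all genes tested were higher, most without KOAC10-5. Shh, the signal itself, was at 8.05, 6.65 and 10.02 FPKM (KO) against 5.27, 5.47, 3.92 and 7.21 FPKM (WT), which overlapped (log2 fold change 0.52, adjusted p = 0.391). Cdon, a coreceptor for Shh, was at 17.9, 17.0 and 16.0 FPKM (KO) against 21.01, 20.1, 20.9 and 19.4 FPKM (WT) without overlap (log2 fold change -0.25, adjusted p = 0.285). The summed FPKM of 4 notochord markers overlapped, with 13.3 to 18.2 in KO embryos and up to 14.7 in WT embryos. Of 14 tested sclerotome and somite genes, 3 were higher (Jag1, Lfng and Foxc2) and 2 lower (Gas1 and Meox1) at an unadjusted p under 0.05, 0 had an adjusted p under 0.05, and the median log2 fold change was 0.08. The count of higher genes was 2 without KOAC10-8 and 3 or 4 without any other embryo. Meox1, a homeobox gene that acts upstream of Nkx3-2, was at 7.91, 6.14 and 6.09 FPKM (KO) against 8.42, 8.74, 9.25 and 8.26 FPKM (WT) without overlap (log2 fold change -0.33, adjusted p = 0.325 from limma), and Gas1, another coreceptor of Shh, had a log2 fold change of -0.23.

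Of 18 tested cartilage regulators and enzymes, 1 was higher and 3 were lower at an unadjusted p under 0.05, 0 had an adjusted p under 0.05 in limma, and the median log2 fold change was -0.11. For this and the following lists, the shares of all genes tested were 5.27% higher and 6.19% lower. The count of lower regulators and enzymes was 1 without KOAC10-8, 2 without KOAC10-7 or KOAC9-1, 4 without KOAC10-2 and 7 without KOAC10-5. Without KOAC10-5, 8.53% of all genes tested were lower. The receptor genes Fgfr3 and Pth1r, both of growing cartilage but also used elsewhere, stood on opposite sides, with log2 fold changes of 0.27 and -0.22. Mef2c, which acts in muscle and endothelium as well as in chondrocyte maturation, averaged 8.96 FPKM in KO embryos and 12.9 FPKM in WT embryos, without overlap (log2 fold change -0.47, adjusted p = 0.354). Of 12 tested osteoblast genes, 1 was higher (Spp1) and 3 were lower (Col1a2, Col1a1 and Sparc) at that threshold, 0 had an adjusted p under 0.05, and the median was 0.09. Spp1, which encodes osteopontin, had a log2 fold change of 0.69, and the count of higher genes was 2 without KOAC8-6 and 3 without KOAC10-5 or KOAC10-2. The count of lower osteoblast genes was 2 without KOAC8-6 and 1 with the number in the embryo names as a block. In these fits, 4.61% and 4.65% of all genes tested were lower. Sp7, which encodes the osteoblast factor osterix, was at 7.33, 1.49 and 7.499 FPKM (KO) against 0.982, 1.08, 1.23 and 5.63 FPKM (WT), which overlapped (log2 fold change 1.01, adjusted p = 0.539 from limma). In the same list, Col1a1 and Col1a2, the type I collagen chains that also serve dermis and tendon, were at -0.59 and -0.36. Of 6 tested tendon genes, 0 had an adjusted p under 0.05, and 4 were lower and 0 higher at an unadjusted p under 0.05. The lower ones include Tnmd, Tnc (log2 fold change -0.49) and Scx, the tendon transcription factor (-0.37), and the median was -0.35. Without KOAC8-6, 3 tendon genes were lower, and without KOAC10-8, 1 was higher. Of 14 tested genes of limb and head mesenchyme, 1 was higher (Prrx2, log2 fold change 0.22), 0 were lower at that threshold, 0 had an adjusted p under 0.05, and the median was 0.11, with Hand2 at 0.27. The count of higher genes in this last list was 2 without KOAC8-6, KOAC10-5, KOAC10-7 or KOAC10-2. With 1 embryo left out, 3.3% to 7.81% of all genes tested were higher.

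**Figure D3:**
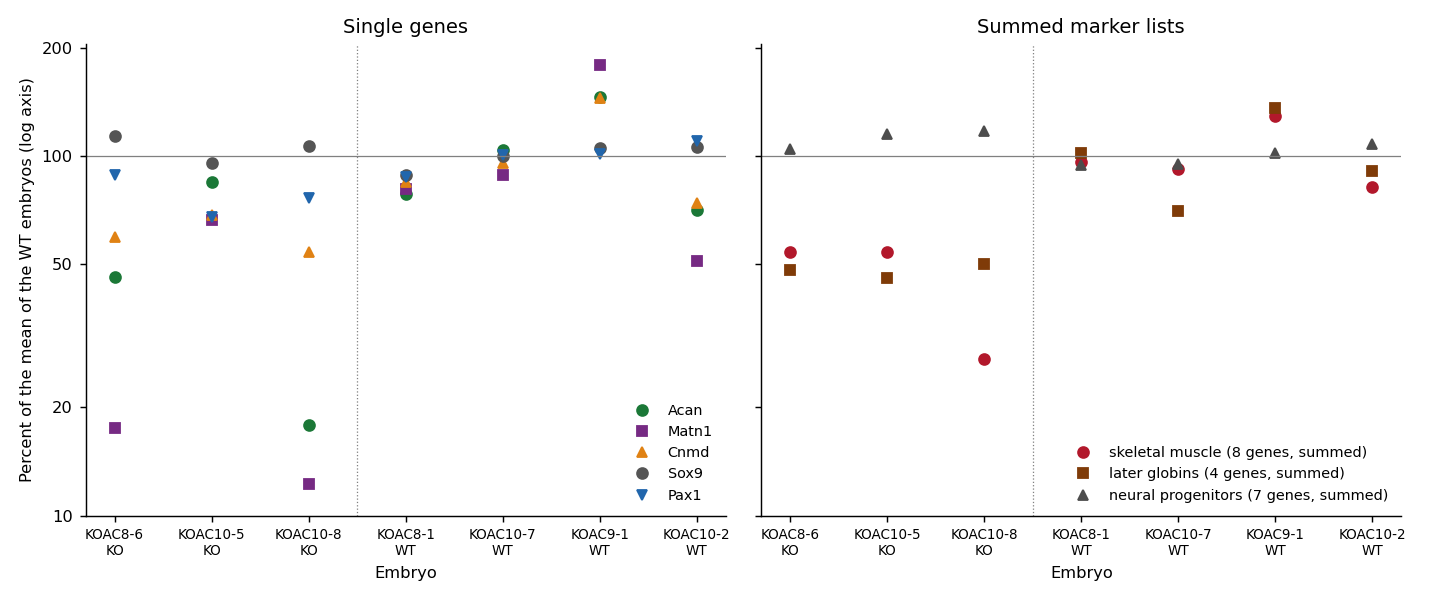
Level in each embryo as a percentage of the mean of the WT embryos (vertical log axis), for single genes on the left and for summed marker genes on the right, with KO embryos left of the dotted line. Acan, Matn1 and Cnmd are highest in the WT embryo KOAC9-1 and lowest in the KO embryo KOAC10-8, as are the 8 skeletal muscle markers, while Sox9 stays near 100.

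The spread within a genotype differed between the genes. The highest WT embryo was at 3.52 times the lowest for Matn1, 2.07 times for Acan and 1.96 times for Cnmd, and at 1.12 to 1.28 times for Sox9, Sox6, Pax1, Pax9, Nkx3-2 and Runx2, and at 2.38 times for Sox5, where the median over the genes tested was 1.20. Among KO embryos the same ratio was 5.43 for Matn1 and 4.75 for Acan, 1.61 for Runx2, 1.27 for Cnmd and 1.08 to 1.30 for the other transcription factors, where the median over the genes tested was again 1.20. The WT embryo KOAC9-1 was the highest of the 7 in 12 of the 19 cartilage matrix genes (63.2%) and in 16.9% of all genes tested, and the KO embryo KOAC10-8 was the lowest in 10 of the 19 (52.6%) and in 18.9% of all genes tested.

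Of the markers of other tissues, the summed levels of skeletal muscle and the later globins were lower in KO embryos, and those of liver, neurons, and neural crest and glia overlapped. The summed FPKM of 8 skeletal muscle markers was 54.6, 54.7 and 27.6 in KO and 97.5, 93.3, 131.0 and 82.9 in WT embryos, with 6 of the 7 tested lower in KO embryos at an unadjusted p under 0.05 and all 8 detected. That of 4 later globins (Hba-a1, Hba-a2, Hbb-bt and Hbb-bs) was 5551 to 6089 in KO and 8550 to 16580 in WT embryos, with 4 of 4 lower. Over all genes tested, 6.19% were lower at an unadjusted p under 0.05. Both sums separated the genotypes without overlap, and both were highest in KOAC9-1. That of 7 neuron markers was 612 to 749 in KO and 629 to 773 in WT embryos, and that of 6 markers of neural crest and glia was 30.3 to 35.5 in KO and 34.1 to 34.7 in WT embryos. Of these 6, 2 were lower and 0 higher in KO embryos at an unadjusted p under 0.05. Of the neuron and liver markers, 0 were lower or higher at that threshold. The part of muscle or red cells in the values of Acan, Matn1 and Cnmd was not tested.

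**Figure D4:**
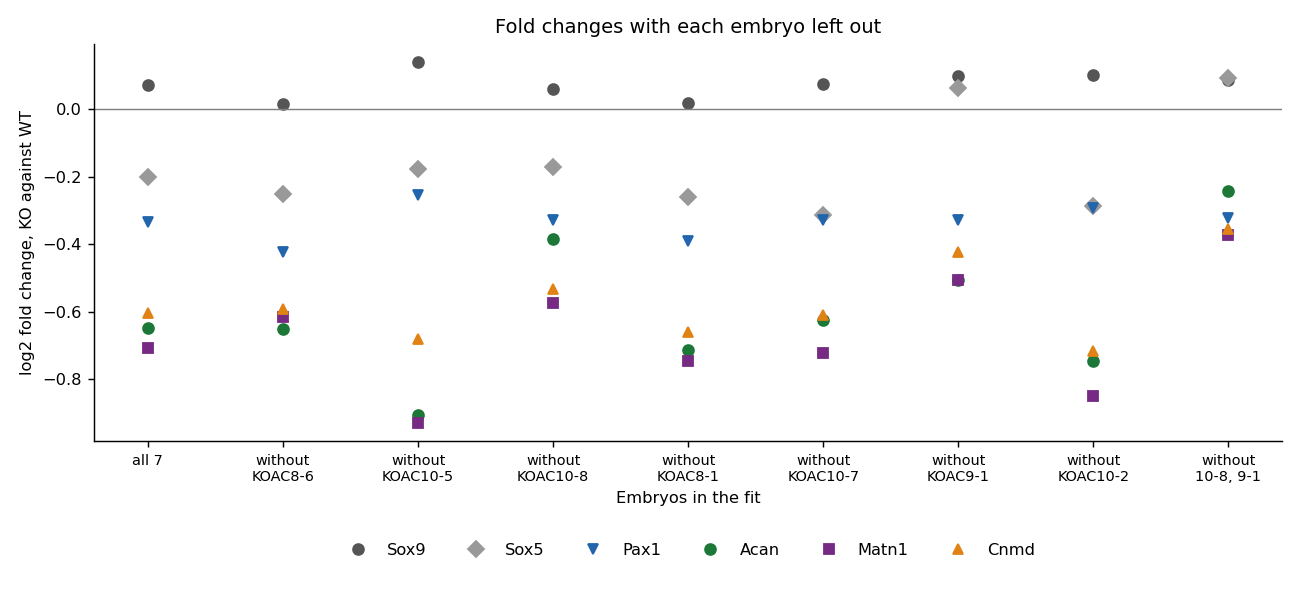
Log2 fold change of KO against WT (vertical axis) for 6 of the genes with all 7 embryos, with each embryo left out, and with KOAC10-8 and KOAC9-1 both left out (horizontal axis). Acan, Matn1, Cnmd and Pax1 stay below 0 in all 9 fits, and Sox5 crosses 0 in the fits without KOAC9-1.

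With the WT embryo KOAC9-1 and the KO embryo KOAC10-8 both left out, an alternative chosen after seeing the data, the log2 fold changes were -0.24 for Acan, -0.37 for Matn1, -0.35 for Cnmd and -0.32 for Pax1. In the full set they were -0.65, -0.71, -0.60 and -0.33. KOAC9-1 and KOAC10-8 are the highest and lowest embryos for Acan, Matn1 and Cnmd, so leaving them out had to make these differences smaller. Pax1 is highest in KOAC10-2 and lowest in KOAC10-5, so this fit cannot compare it with the others. In the cartilage matrix list, 6 of 13 genes were then lower at an unadjusted p under 0.05, and 8 of 13 still had their KO embryos all below their WT embryos, where the shares of all genes tested were 3.42% and 11.6%. Of the 9 genes of the program, 1 was then lower at that threshold and 0 were higher, where 3.42% and 2.6% of all genes tested were.

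The genes whose pattern over the 7 embryos was most like that of Sox9 on the log2(FPKM + 1) scale were Acy1 (Pearson r = 0.966), Ank (0.957), Dgkk (0.95), Rnf219 (0.926) and Tmem41a (0.924). Those most like Pax1 were St3gal2 (0.955), Gm28857 (0.953), Gm48274 (0.944), Osbpl1a (0.943) and Pfn4 (0.94). None of these belongs to the program or its lists. With 7 embryos and 16095 genes, such coefficients are descriptions of these embryos, whose points share genotype and depth.

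For 4 of the 10 genes, exons overlap a gene on the other strand, and the TruSeq RNA v2 kit does not mark strand, so reads from both cannot be told apart. The overlap takes 9.25% of the exon bases of Sox5 (with Sox5os1), 5.87% of Runx2 (Runx2os1), 4.07% of Pax1 (AI646519) and 3.74% of Pax9 (Slc25a21). Runx2os1 was at 0.206 to 0.756 FPKM and AI646519 at 1.503 to 5.05 FPKM over the embryos. Stretches of 50 bases shared with transcripts of other genes made up at most 0.73% of any of the 10, in Pax9.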

How the data were processed

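RNA-seq libraries (TruSeq RNA v2) of 7 whole e11.5 embryos, 3 KO and 4 WT by the labels, were read as FPKM values that the authors made and deposited, 1 column per embryo. Salmon, DESeq2, MultiQC and the build GRCm38 are named in the submitters' processing notes, without roles. The authors' mean signal per gene (counts divided by size factors) served only for fragment estimates, and the authors' own fold changes and p-values were not used. 0 FPKM columns were left unmapped. The members and lists were chosen with earlier results of these data known, and the labels do not say that embryos of 1 number in KOAC8, KOAC9 and KOAC10 are littermates.

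For 16095 genes averaging 1 FPKM or more, log2(FPKM + 1) was fitted in R 4.3.3 by limma 3.58.1 (lmFit, eBayes with trend), without covariates and with Benjamini-Hochberg adjustment at 0.05. Steps were tested on simulated data with known changes. Single values were compared with exact two-sided permutation tests over the 35 divisions into 3 and 4 embryos. P-values measure the spread between these embryos, and the depth in reads is not given, so no counting intervals are printed. Named were the 10 genes, their relatives, in each list the 3 tested genes with the smallest unadjusted p, and the 5 most like Sox9 and Pax1. Col2a1, Col9a1 to Col9a3, Col11a2, Sp7, Hapln1, Sparc, Lfng, Foxc2 and the genes under 1 FPKM were named after their values were seen. Positions are from GENCODE release M21, promoters from RefSeq (GRCm38.p6). Alternatives were pseudocounts of 0.1 and 0.01, no filter or a minimum mean of 5 FPKM, median-ratio, common-sum and quantile scaling, the embryo-name block, KOAC10 embryos alone, Afp and Xist as covariates, embryo weights, and leaving out embryos.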

Additional observations from a re-analysis of the deposited data

Results flagged for a closer look

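In 5 of the 47 genes examined, among the 10 genes, their relatives and the named list genes, 1 of the 4 WT embryos lay far from the other WT embryos, by Dixon's ratio of the gap to the whole range. Chance alone marks about 1 gene in 20 here, or 2.35 of 47. Sox5 was at 14.3 FPKM in KOAC9-1 against 5.99 to 6.83 FPKM in the other WT embryos (ratio 0.898). Runx3, a relative of Runx2, was at 2.28 FPKM in KOAC9-1 against 0.924 to 1.05 FPKM (ratio 0.904), and Sox8, a relative of Sox9, at 5.34 FPKM against 3.78 to 4.02 FPKM (ratio 0.843). In KOAC10-2, Pax7 was at 5.16 FPKM against 4.45 to 4.50 FPKM (ratio 0.928) and Ncan at 15.4 FPKM against 13.2 to 13.5 FPKM (ratio 0.862). For Sox5, KOAC9-1 sets the sign of the difference between the genotypes. Genes named after their values were seen were not examined, among them Sp7. Its level was 5.63 FPKM in KOAC10-2 against 0.982 to 1.23 FPKM in the other WT embryos.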

How the results depend on the processing

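Under 20 alternatives, 0 of the 9 tested genes of the program and 0 genes of the lists had an adjusted p under 0.05, and the log2 fold changes of Pax1 and Cnmd stayed below 0, as did those of Acan, Runx2 and Matn1 in 19, since a minimum mean of 5 FPKM leaves these out. Leaving out 1 embryo gave -0.42 to -0.25 for Pax1, -0.91 to -0.39 for Acan, -0.42 to -0.15 for Runx2, -0.72 to -0.42 for Cnmd, -0.93 to -0.51 for Matn1, 0.0177 to 0.14 for Sox9, -0.31 to 0.0623 for Sox5, -0.0885 to 0.0562 for Sox6, -0.0125 to 0.0369 for Pax9, -0.0782 to 0.0236 for Nkx3-2 and 7 to 12 genes called over the whole table, 12 without KOAC8-1. Matn1 was at -1.57 and -1.85, and Acan at -1.11 and -1.21, with pseudocounts of 0.1 and 0.01, since a smaller pseudocount shrinks low values less. With KOAC10 embryos alone, the signs of Sox9 (-0.0262), Sox5 (0.0528) and Pax9 (-0.0192) turned and 13 genes were called. With the replicate block of embryo names, in which KOAC9-1 has no partner and drops out, Sox5 was at 0.0623 and Sox6 at 0.0121, and 1 of the 9 genes was lower at an unadjusted p under 0.05. In that fit, 4.65% of all genes tested were lower. Embryo weights gave 0.0255 for Sox6, and Afp as covariate 10 called genes. Without KOAC10-8 and KOAC9-1 (added after seeing the data), Sox5 was at 0.0922, Sox6 at 0.104 and Nkx3-2 at 0.0176, and 10 genes were called. The cause of these turns was not tested.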
